A study of Mus musculus with 36 samples.

Results

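Il20 and Il24 encode secreted cytokines of the interleukin 20 subfamily, and the genes described here are these cytokines, their relative Il19, and the receptor chains Il20ra, Il20rb, Il22ra1 and Il10rb. Of the 7 listed genes, 5 had a probe set named in the array annotation, out of 17097 named genes in all, and all 5 passed the expression filter. Il19 and Il22ra1 had no named probe set and were not analysed here. The group was chosen by measured values: Il20 and Il24 were higher on a palmitate diet in shCD36 tumours. Their values in that comparison are therefore a description without a test. The same holds for every comparison that uses shCD36 groups.

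The study measured mouse RNA from the stroma of human oral carcinoma cells grown orthotopically in NSG mice, a severely immunodeficient NOD-SCID gamma strain that lacks mature T, B and NK cells. The labels call the material the neural fraction. Tumour cells carried either a hairpin against CD36 (shCD36), a fatty acid transporter, or a non-targeting hairpin (PLKO). The knockdown was in the tumour cells and not in the mouse stroma. Whether tumour cell RNA added to the values on these mouse arrays was not tested. The SCC25 experiment had shCD36 palmitate, shCD36 control, PLKO palmitate and PLKO control groups with 3 arrays each, and the second VDH15 experiment had the same groups with 3 arrays each. The first VDH15 experiment had PLKO palmitate, PLKO oleate and PLKO control groups with 4 arrays each. Each of the 11 groups was 1 labelled biological replicate, and its arrays were labelled technical replicates, so an SD over arrays covers technical spread and not the spread between animals.

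IL-19, IL-20 and IL-24 signal through a receptor pair of the IL-20 receptor beta and alpha chains. IL-20 and IL-24 also use a pair of the same beta chain and the IL-22 receptor alpha chain. The pairs act through JAK kinases and mainly STAT3. In skin, keratinocytes are main producers and responders, and the cytokines are known for raising antimicrobial and hyperproliferation genes and lowering terminal differentiation genes. Il10rb encodes a chain shared by the IL-10 and IL-22 receptors and is listed as a related receptor chain. Il24, Il20, Il19 and Il10 lie next to each other in that order on mouse chromosome 1.

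The start-site windows of Il20, whose level varied most between groups, and of both chains of its receptor are printed here from RefSeq on GRCm38.p6. Each runs 5′ to 3′ on the gene's strand, from 250 bases before to 50 bases after the start site. Il20 lies at chr1:130911247-130911546 on the minus strand, Il20ra at chr10:19712337-19712636 on the plus strand and Il20rb at chr9:100486424-100486723 on the minus strand. Capitals mark matches to an AP-1 motif (TGANTCA) or a STAT motif (TTCNNNGAA).
Il20: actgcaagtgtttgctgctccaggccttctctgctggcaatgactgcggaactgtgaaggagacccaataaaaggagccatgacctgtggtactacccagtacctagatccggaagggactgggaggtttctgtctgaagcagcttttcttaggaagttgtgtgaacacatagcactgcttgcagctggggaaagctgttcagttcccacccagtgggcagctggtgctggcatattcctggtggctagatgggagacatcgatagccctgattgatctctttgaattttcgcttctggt
Il20ra: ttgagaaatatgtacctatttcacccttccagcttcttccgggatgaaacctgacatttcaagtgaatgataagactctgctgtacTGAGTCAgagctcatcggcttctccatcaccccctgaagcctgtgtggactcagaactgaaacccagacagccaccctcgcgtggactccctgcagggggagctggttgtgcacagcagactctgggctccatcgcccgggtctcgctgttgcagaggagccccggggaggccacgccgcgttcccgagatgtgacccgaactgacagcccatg
Il20rb: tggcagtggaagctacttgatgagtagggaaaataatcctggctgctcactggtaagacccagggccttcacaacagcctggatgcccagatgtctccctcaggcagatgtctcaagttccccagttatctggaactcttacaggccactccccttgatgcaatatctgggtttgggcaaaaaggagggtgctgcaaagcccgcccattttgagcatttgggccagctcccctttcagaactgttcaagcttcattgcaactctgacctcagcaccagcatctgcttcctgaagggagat

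6 motifs were searched on both strands in the windows of the 5 listed genes that had one. The AP-1 motif was found in 7.81% of 32851 mouse windows of this length and the STAT motif in 8.30%. The other motifs were CRE (TGACGTCA, 1.79%), a kB-like motif (GGGANTTTC, 1.11%), a loose C/EBP-like motif (TTNNGNAA, 40.7%) and a loose CArG-like motif (73.3%). The Il20 window held 0 of the 6. The AP-1 motif was found in the Il20ra window, starting at position -164 from the start site, and in the Il22ra1 window, and the STAT motif in the Il19 window. The C/EBP-like motif was found in the Il19, Il20ra and Il20rb windows, and the CArG-like motif in the Il20ra and Il22ra1 windows. A match is a description of the letters and not of a factor bound there.

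Before the values, 3 arrays stood apart on the first principal component, which held 44.5% of the variance. They were palmitate arrays 1 and 2 of the first VDH15 experiment and PLKO palmitate array 1 of the second. The deposited values were already adjusted for batch and cell line, so a level compared between experiments reflects that adjustment too. Array medians were 5.98 to 6.04 log2. Keratinocyte markers had a mean level of 10.9 log2, against 6.28 log2 for Schwann cell and glial markers and 5.69 log2 for neuron markers. The Schwann cell markers Sox10, Ngfr and Erbb3 were at 6.85, 7.78 and 8.97 log2, while Gfap was at 4.45 and S100b at 4.87 log2, both below the filter of 5.19. Probe set levels are not scaled to one another, so these values do not rank genes by amount of RNA.

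In shCD36 tumours, both cytokines were higher on palmitate than on control diet in both experiments. In SCC25 tumours, Il20 measured 8.21, 8.14 and 8.45 log2 in shCD36 palmitate arrays, against 6.004, 6.57 and 5.98 log2 in shCD36 control arrays. The groups did not overlap, and the difference was 2.08 ± 0.21 log2 (SE over arrays, n = 3 each), or 4.24-fold. In the second VDH15 experiment, Il20 measured 7.03, 7.43 and 7.51 log2 in shCD36 palmitate arrays, against 5.88, 6.29 and 6.34 log2 in shCD36 control arrays. Again the groups did not overlap, with a difference of 1.15 ± 0.21 log2, or 2.22-fold.

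Il24 showed the same order. In SCC25 tumours it measured 8.49, 8.26 and 8.85 log2 in shCD36 palmitate arrays, against 6.88, 6.31 and 6.82 log2 in shCD36 control arrays, a difference of 1.86 ± 0.25 log2 or 3.63-fold. In the second VDH15 experiment it measured 8.22, 8.37 and 8.40 log2 in shCD36 palmitate arrays, against 7.43, 7.24 and 7.34 log2 in shCD36 control arrays, a difference of 0.99 ± 0.08 log2 or 1.99-fold. Neither pair of groups overlapped. Among 12823 genes ordered by this difference, Il20 was at rank 3 and Il24 at rank 4 in SCC25 tumours, and at ranks 12 and 20 in the second VDH15 experiment. limma on the group averages called 0 of 12823 genes for this contrast (0.0%), with 282 at an unadjusted p under 0.05, and a fit on arrays with a random group block called 7. The rule used this contrast, so nothing is read from that share.

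**Figure D1:**
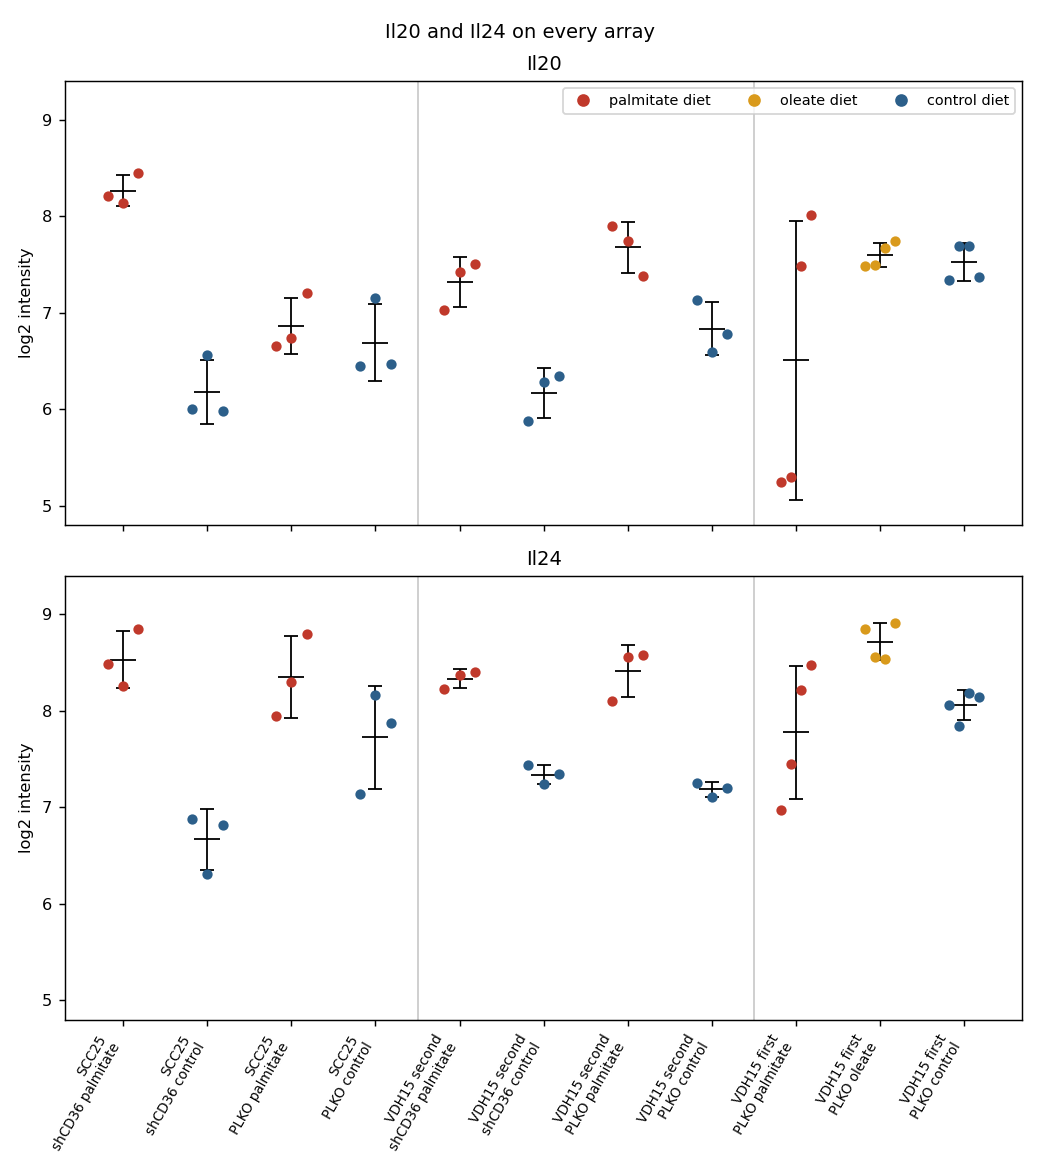
Log2 intensity of Il20 (top) and Il24 (bottom) on each of the 36 arrays by group. Points are arrays labelled technical replicates, and bars are the mean and SD of a group. The shCD36 palmitate arrays lie above the shCD36 control arrays of the same experiment, and 2 PLKO palmitate arrays of the first VDH15 experiment lie near 5.24 and 5.30 for Il20.

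The receptor chains showed no such difference. Il20ra, the alpha chain, was 0.07 log2 higher on palmitate in SCC25 shCD36 tumours and 0.03 log2 higher in the second VDH15 experiment, with overlapping arrays. Il20rb, the shared beta chain, differed by -0.04 and -0.17 log2, and Il10rb by 0.13 and -0.05 log2, all with overlapping arrays. The second Il10rb probe set differed by 0.01 log2 in SCC25 tumours and by -0.29 log2 in the second VDH15 experiment. These are descriptions with no test.

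**Figure D2:**
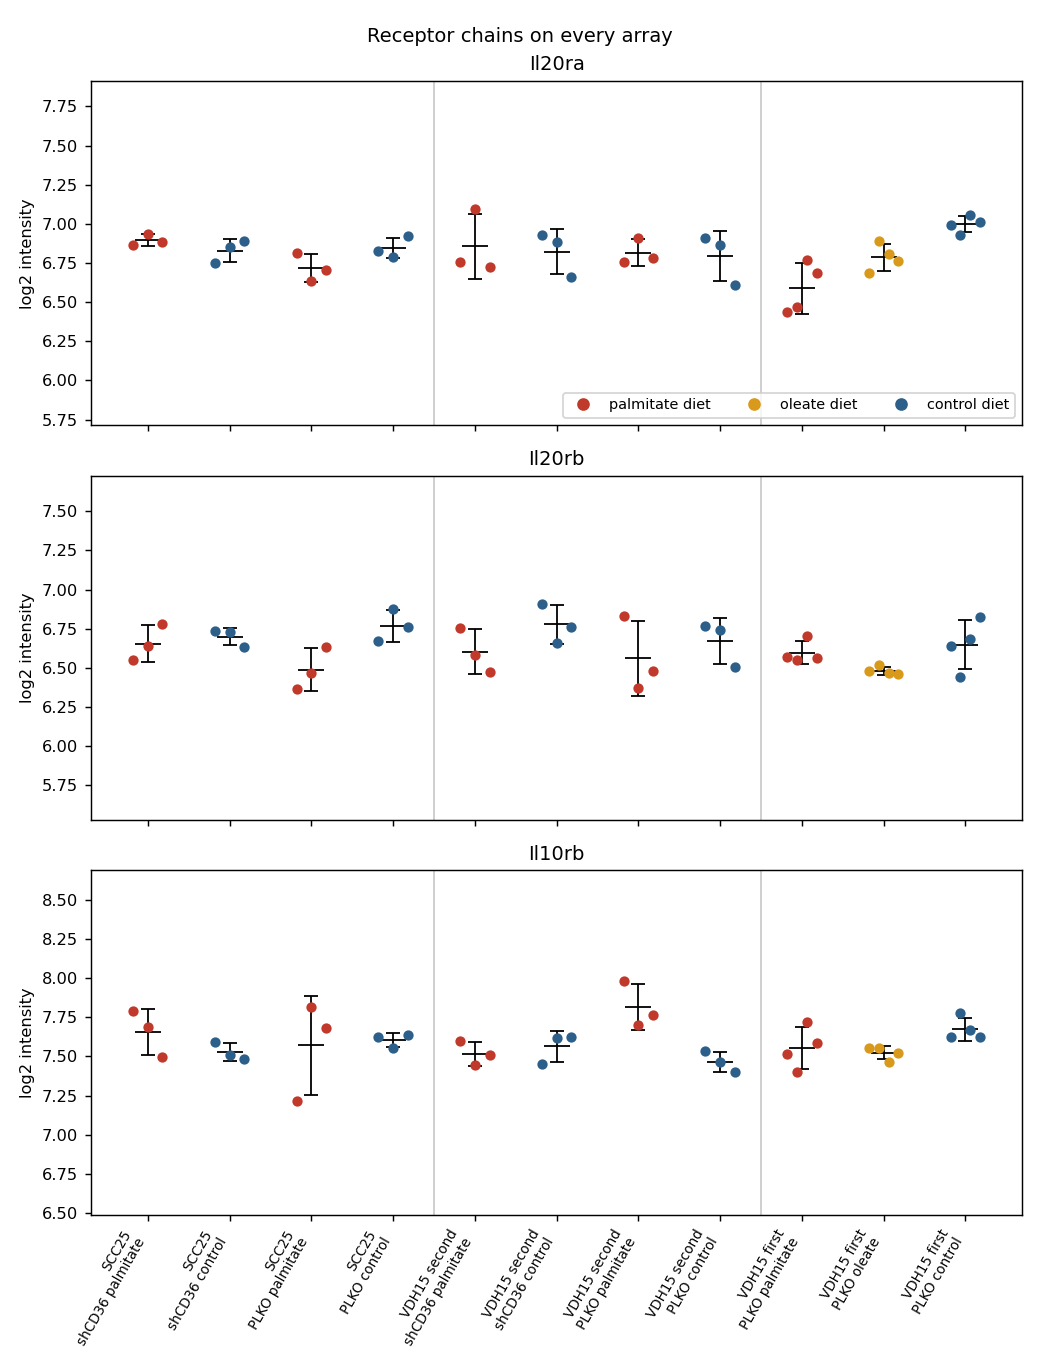
Log2 intensity of Il20ra, Il20rb and Il10rb on each array by group, with points for arrays and bars for the mean and SD of a group. The 3 panels span the same number of log2 units, and group means lie within 0.41, 0.30 and 0.35 log2 for the 3 genes.

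The shCD36 tumours were set against PLKO tumours on each diet, again without a test. On control diet, Il20 was 0.51 log2 lower in SCC25 shCD36 tumours, with overlapping arrays, and 0.66 log2 lower in the second VDH15 experiment, with none overlapping. These are differences of -0.51 and -0.66 log2, and the 2 shCD36 control groups had the lowest Il20 means of the 11 groups, at 6.18 and 6.17 log2. Il24 differed by -1.06 log2 in SCC25 tumours, with no overlap, and by 0.15 log2 in the second VDH15 experiment, with overlap. On palmitate, Il20 differed by 1.40 log2 in SCC25 tumours, with no overlap, and by -0.36 log2 in the second VDH15 experiment, with overlap. Il24 differed by 0.18 and -0.08 log2 on palmitate, with overlap in both. The receptor arrays overlapped on control diet. On palmitate, in SCC25 and the second VDH15 experiment in turn, Il20ra differed by 0.18 (no overlap) and 0.04 log2. Il20rb differed by 0.17 and 0.04 log2, with overlap. Il10rb differed by 0.09 and -0.30 log2, the second without overlap. Its second probe set differed by -0.17 and -0.59 log2, with no overlap in either. limma called 0.0% of genes for shCD36 over PLKO on control diet and 0.374% on palmitate.

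The palmitate minus control difference was then set against that in PLKO tumours. In SCC25 tumours the shCD36 difference exceeded the PLKO one by 1.91 log2 for Il20 and by 1.24 log2 for Il24. In the second VDH15 experiment the corresponding values were 0.31 log2 for Il20 and -0.23 log2 for Il24. The contrast of the differences was not tested.

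In PLKO tumours, which the rule did not use, Il20 did not move in the same direction on palmitate in every experiment when all arrays were kept. In the first VDH15 experiment Il20 measured 5.24, 5.30, 7.49 and 8.01 log2 in palmitate arrays, against 7.34, 7.69, 7.69 and 7.37 log2 in control arrays. The palmitate arrays reached from below to above all control arrays, with a difference of -1.01 ± 0.73 log2 (SE over arrays, n = 4 each). Both low arrays are among those that stood apart, and without them the difference was 0.23 log2. Their keratinocyte marker means were 9.96 and 10.1 log2, against 10.9 log2 on each of the other palmitate arrays and 11.3 log2 on average in the control arrays. Their fibroblast marker means were 9.41 and 9.35 log2, against 8.60 and 8.64 log2 on the other palmitate arrays and 7.97 log2 on average in the control arrays. The part of these markers in the Il20 values was not tested, and in bulk RNA fewer cells of a type and less RNA per cell cannot be told apart. The 2 low arrays came from different scan batches, and the difference was -0.89 and -1.14 log2 within scan batches 2 and 3.

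In SCC25 PLKO tumours Il20 measured 6.66, 6.74 and 7.20 log2 on palmitate, against 6.45, 7.15 and 6.47 log2 on control diet, with overlap and a difference of 0.17 ± 0.29 log2. In the second VDH15 experiment it measured 7.90, 7.75 and 7.39 log2 on palmitate, against 7.13, 6.59 and 6.78 log2 on control diet, with no overlap and a difference of 0.84 ± 0.22 log2. Without PLKO palmitate array 1, which stood apart, that difference was 0.73 log2. Over the 3 experiments limma on group averages gave 0.0017 log2 for Il20, with a 95% interval of -0.95 to 0.95 (adjusted p = 0.999). Without the 3 arrays that stood apart the same fit gave 0.38 log2, not called (limma adjusted p = 0.454).

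Il24 in PLKO tumours measured 6.97, 7.45, 8.21 and 8.47 log2 in first VDH15 palmitate arrays, against 8.06, 7.85, 8.19 and 8.14 log2 in control arrays, a difference of -0.28 ± 0.35 log2, or 0.28 log2 without the 2 arrays that stood apart. In SCC25 PLKO tumours it measured 7.95, 8.30 and 8.80 log2 on palmitate, against 7.13, 8.17 and 7.87 log2 on control diet, with overlap and a difference of 0.62 ± 0.39 log2. In the second VDH15 experiment it measured 8.10, 8.56 and 8.57 log2 on palmitate, against 7.26, 7.10 and 7.20 log2 on control diet, with no overlap and a difference of 1.23 ± 0.16 log2, and without PLKO palmitate array 1 it was 1.38 log2. limma on group averages gave 0.52 log2 for Il24, with a 95% interval of -0.20 to 1.24 (adjusted p = 0.325).

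Of the 5 genes, 0 were called for palmitate over control diet in PLKO tumours, against 6.92% of the 12823 genes tested. Within single experiments, where arrays were the units and limma's error covers technical spread only, 1 of 5 was called in the first VDH15 experiment (46.3% of all genes), 1 of 5 in SCC25 (19.1%) and 3 of 5 in the second VDH15 experiment (14.4%). The calls were Il20ra in the first VDH15 experiment at -0.41 log2 (limma adjusted p = 0.00153), Il20rb in SCC25 at -0.28 log2 (limma adjusted p = 0.0343), and Il20, Il24 and Il10rb in the second VDH15 experiment. For those the limma adjusted p was 0.0131 for Il20, 0.000547 for Il24 and 0.0253 for Il10rb, whose difference was 0.35 log2. Without the 2 arrays that stood apart, the Il20ra difference was -0.27 log2.

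**Figure D3:**
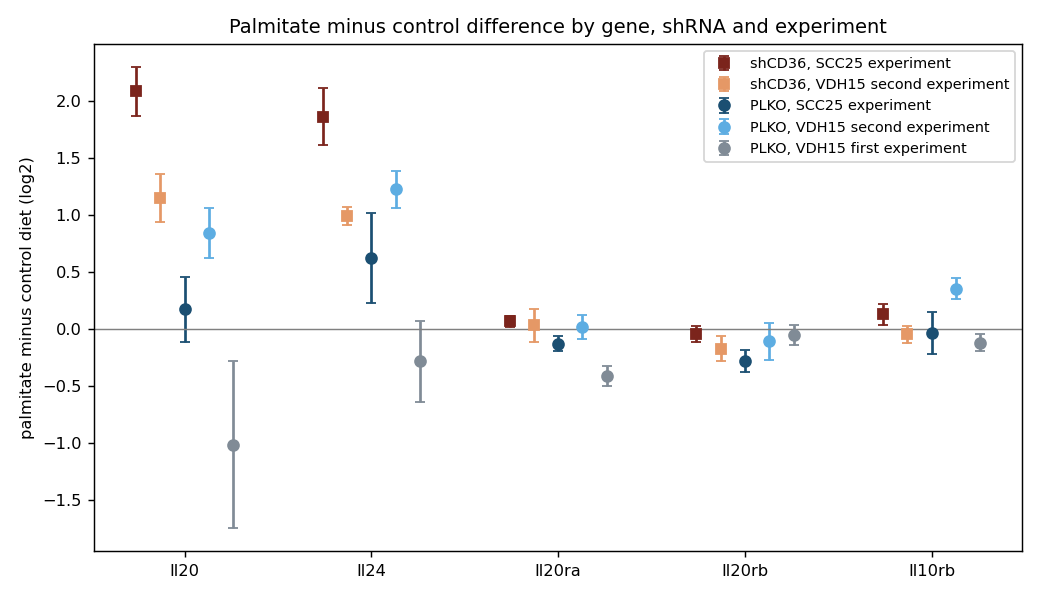
Palmitate minus control difference in log2 intensity for the 5 genes, by shRNA and experiment. Points are differences of group means and bars are SE over arrays. The shCD36 points of Il20 and Il24 lie at 2.08 and 1.15 and at 1.86 and 0.99, and the PLKO points of Il20 run between -1.01 and 0.84.

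Oleate was measured in the first VDH15 experiment only. Il24 measured 8.85, 8.56, 8.54 and 8.91 log2 in oleate arrays, against 8.06, 7.85, 8.19 and 8.14 log2 in control arrays. The groups did not overlap and differed by 0.66 ± 0.12 log2. limma within the experiment did not call this difference (adjusted p = 0.305). The error in that fit was shared by the palmitate, oleate and control arrays. For Il24 the SD over arrays was 0.69 log2 on palmitate, against 0.19 log2 on oleate and 0.15 log2 on control diet. The missing call therefore does not show that oleate and control levels were alike. The fit over all groups gave 1.06 log2 for Il24, not called. Its reference was 7.66 log2, the mean of the PLKO control groups of 3 experiments. Through the experiment block, palmitate arrays also enter this fit. Without the 3 arrays that stood apart, the fitted oleate value of Il20 went from 0.58 to 0.15 log2. Il20 measured 7.49, 7.49, 7.67 and 7.74 log2 on oleate, with overlap and a difference of 0.07 log2 from control. For oleate over control, 0 of 5 genes were called in either fit, against 1.23% of all genes within the experiment and 0.0% in the fit over all groups.

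Palmitate was set against oleate in the same experiment, which shares the palmitate arrays already described. Il24 was lower on palmitate by 0.94 log2, a difference of -0.94 log2 with no overlap (limma adjusted p = 0.0158, arrays as units), and of -0.37 log2 without the 2 arrays that stood apart. Il20 differed by -1.09 log2, with overlap (adjusted p = 0.122 by limma), and by 0.15 log2 without the 2 arrays that stood apart, so its direction turned. The call for Il24 was 1 of 5 genes, against 39.1% of all genes, and the fit over all groups called 0 of 5, against 0.039%.

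Over the 11 group means, Il20 spanned 2.10 log2 and Il24 2.05 log2. Both ends of the Il20 span and the low end of the Il24 span are shCD36 groups that the choice of genes used, so the spans restate that choice. Il20ra spanned 0.41 log2, Il20rb 0.30 and Il10rb 0.35, wider spans than those of 55.9%, 35.5% and 46.6% of tested genes. Il20ra means ran from 6.59 log2 in first VDH15 palmitate tumours to 6.9988 log2 in first VDH15 control tumours. Il20rb ran from 6.48 log2 in first VDH15 oleate tumours to 6.78 log2 in second VDH15 shCD36 control tumours, and no neighbours in its order differed beyond their SD. Il10rb ran from 7.46 log2 in second VDH15 PLKO control tumours to 7.82 log2 in second VDH15 PLKO palmitate tumours, likewise with no such gap. The second Il10rb probe set spanned 0.59 log2 and was lowest in second VDH15 shCD36 palmitate tumours, at 5.66 log2. Il20 was highest in SCC25 shCD36 palmitate tumours, at 8.27 ± 0.16 log2 (SD over arrays, n = 3), and the gap of 0.59 log2 to the second group exceeded the larger SD. The groups at ranks 2 to 5 lay between 7.68 and 7.32 log2 and neighbours among them did not differ beyond their SD. Il24 was highest in first VDH15 oleate tumours at 8.72 ± 0.19 log2. The other groups at ranks 2 to 5 were all on palmitate, and they included the shCD36 palmitate groups that the choice of genes used. Neighbours among these 5 did not differ beyond the SD, while the gap of 0.27 log2 to the group at rank 6 did. First VDH15 control tumours were at rank 6 with 8.06 log2, and first VDH15 palmitate tumours below them at rank 7 with 7.78 log2. Il24 was lowest in SCC25 shCD36 control tumours at 6.67 ± 0.31 log2.

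The Pearson correlation of Il20 with Il24 over the 11 groups was 0.81 and Spearman's rho 0.85, as a description; without the 2 groups farthest from the Il20 median r was 0.80. The groups share experiments and the batch adjustment. The 11 groups include the 4 shCD36 groups by which both genes were chosen, so this likeness and those that follow rest in part on that choice. The genes most like Il20 were Bloc1s4, a subunit of a complex for lysosome-related organelles (r = 0.985), Mctp2 (0.924), Stra8, a meiosis gene (0.912), Mvd, an enzyme of sterol synthesis (0.902), and Ippk, an inositol phosphate kinase (0.898). Those most like Il24 were Arpc5, a subunit of the Arp2/3 complex (0.925), Dipk1a (0.916), Ppa1, a pyrophosphatase (0.912), Prps1, an enzyme of nucleotide synthesis (0.908), and Faim, an inhibitor of apoptosis (0.900). All 10 had much narrower ranges than Il20 and Il24, such as 5.93 to 6.19 log2 for Bloc1s4, 5.99 to 6.07 log2 for Stra8 and 4.96 to 5.53 log2 for Dipk1a, the widest of those most like Il24.

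Of the neighbours on chromosome 1, Il10 had a mean of 4.85 log2, below the filter. In PLKO tumours Il10 differed on palmitate by 0.79 log2 in the second VDH15 experiment, with no overlap. The difference was -0.22 log2 in the first VDH15 experiment and -0.12 log2 in SCC25. On palmitate in shCD36 tumours, the neighbours past the filter differed by less than Il20 and Il24. Mapkapk2 differed by 0.09 log2 in SCC25 and 0.15 log2 in the second VDH15 experiment, Dyrk3 by 0.26 and -0.19 log2, and Pigr by 0.05 and -0.13 log2.

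Genes around the receptors were counted from lists, beside the contrast's background of 6.92% of 12823 genes called, 468 higher and 419 lower on palmitate in PLKO tumours. With 1 call in 8 or 9 genes a list lies near that share. Of 9 JAK-STAT genes tested, 0 rose and 1 fell on palmitate in PLKO tumours: Cish, a STAT-induced feedback inhibitor, at -0.72 log2 (limma adjusted p = 0.0289). Stat3 was at -0.06 log2 and Socs3, a STAT3 target and feedback inhibitor, at 0.29 log2, neither called. The list median was -0.10 log2, against -0.03 log2 over all genes. Of 8 genes that induce these cytokines, 1 rose: Il6, an inflammatory cytokine, at 1.39 log2 (limma adjusted p = 0.0340), and in shCD36 tumours Il6 was at -0.41 log2, not called. The list median was -0.06 log2. The 1 other IL-10 family gene that passed the filter was Ifnlr1, a chain of the interferon lambda receptor, at -0.55 log2, not called.

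Of 13 epidermal genes known to rise with these cytokines, 3 rose on palmitate in PLKO tumours and 0 fell, with a median of 0.09 log2 against -0.03 log2 over all genes. Over all 12823 genes, 468 rose. The chemokine genes Cxcl5 and Cxcl1 rose by 1.72 and 0.48 log2 (limma adjusted p = 0.0213 and 0.0381), and the matrix protease gene Mmp3 by 1.81 log2 (limma adjusted p = 0.0491). The keratin genes Krt6b and Krt16, of hyperproliferative epidermis, were at -1.53 and -0.35 log2, not called. Of 5 terminal differentiation genes, 0 rose and 2 fell, where 419 of all 12823 genes fell: Krt10 at -1.76 log2 (limma adjusted p = 0.0261) and Lor at -1.75 log2 (limma adjusted p = 0.0350). Without the 3 arrays that stood apart, 3 of the 13 and 1 of the 5 were called, in the same directions. The JAK-STAT and inducer counts were the same without them. Alongside, 3 of 5 fibroblast, 2 of 6 endothelial and 2 of 6 macrophage markers rose on palmitate in PLKO tumours and none of these fell, against 468 of all 12823 genes that rose. Of 4 neuron markers 1 fell, Tubb3, a neuronal tubulin, at -1.16 log2 (limma adjusted p = 0.0171), and 0 of 4 Schwann cell and glial markers and 0 of 7 keratinocyte markers were called. Without the 3 arrays these counts were 1 of 5, 1 of 6 and 2 of 6 higher, and 1 neuron, 1 Schwann cell and glial and 1 keratinocyte marker were called lower. Their part in these counts was not tested.

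In shCD36 tumours 0 genes of these lists were called (limma adjusted p = 1.00 for each gene named here). S100a8, an antimicrobial alarmin gene that neutrophils also express, was at 1.48 log2 and its partner S100a9 at 1.24 log2 in the fit. In the second VDH15 experiment S100a8 measured 7.51, 8.06 and 7.82 log2 in shCD36 palmitate arrays, against 5.04, 6.17 and 4.72 log2 in shCD36 control arrays, with no overlap. In SCC25 tumours it measured 6.995, 6.52 and 6.29 log2 in shCD36 palmitate arrays, against 6.03, 6.07 and 6.25 log2 in shCD36 control arrays, a smaller difference of 0.48 log2. S100a9 differed by 2.43 log2 in the second VDH15 experiment, with no overlap, and by 0.05 log2 in SCC25 tumours, with overlap. In PLKO tumours of the second VDH15 experiment S100a8 went the other way, with no overlap. It measured 5.55, 5.14 and 5.79 log2 in these palmitate arrays, against 7.27, 6.58 and 6.71 log2 in control arrays. Neutrophil marker means were 5.13 and 5.14 log2 in second VDH15 shCD36 palmitate and control tumours, and 5.24 and 5.22 log2 in SCC25 ones. In this list Cxcr2, Elane and Ngp were at 4.68, 4.18 and 4.33 log2, below the filter, while Csf3r, Mpo and Ltf passed it. Ly6g had no named probe set, so these means are a weak measure of neutrophils.

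The same marker lists were read beside the cytokine differences in shCD36 tumours. Keratinocyte marker means were 10.9 log2 in all 4 groups. Fibroblast marker means were 8.10 log2 in SCC25 shCD36 palmitate tumours and 8.48 log2 in shCD36 control tumours, and 8.27 and 8.39 log2 in the second VDH15 experiment. Macrophage marker means were 6.20 log2 in SCC25 shCD36 palmitate tumours and 5.98 log2 in shCD36 control tumours, and 6.19 and 5.92 log2 in the second VDH15 experiment. Endothelial marker means were 9.50 log2 in SCC25 shCD36 palmitate tumours and 9.17 log2 in shCD36 control tumours, and 8.64 and 9.10 log2 in the second VDH15 experiment. The endothelial arrays did not overlap in either experiment, and the direction was opposite in the 2 experiments. Macrophage arrays did not overlap in SCC25 tumours and overlapped in the second VDH15 experiment. Keratinocyte arrays overlapped in SCC25 tumours and not in the second VDH15 experiment, at 10.91 log2 on palmitate and 10.88 log2 on control diet. Fibroblast arrays overlapped in both experiments. The part of these markers in the cytokine differences was not tested.

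**Figure D4:**
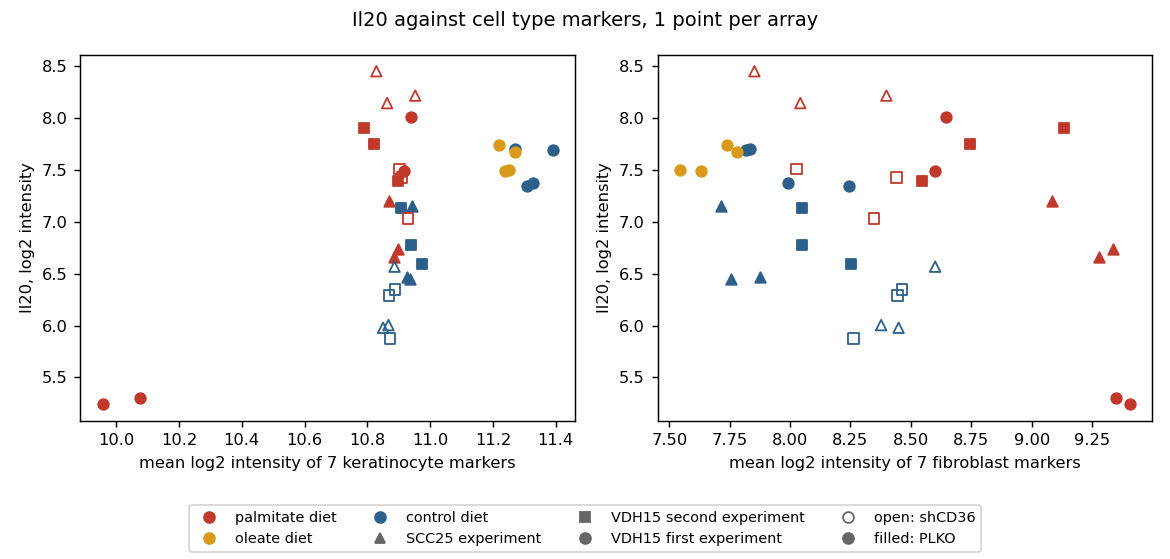
Il20 log2 intensity against the mean log2 intensity of 7 keratinocyte markers (left) and 7 fibroblast markers (right), with 1 point per array. Symbols give the experiment, colours the diet, and open symbols shCD36 tumours. The 2 first VDH15 palmitate arrays with Il20 at 5.24 and 5.30 have keratinocyte means of 9.96 and 10.1, below all other arrays.

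**Figure D5:**
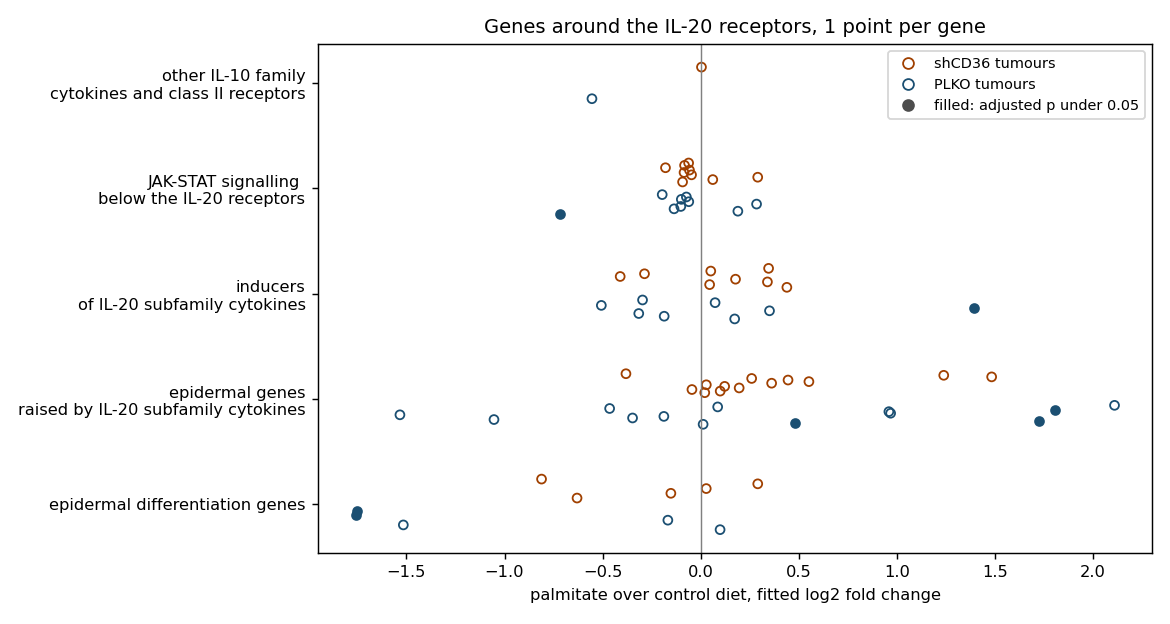
Fitted palmitate over control log2 fold change of each tested gene of 5 lists, in shCD36 tumours (upper row of each list) and PLKO tumours (lower row). Each point is 1 gene, filled where the adjusted p is under 0.05. Filled points are the 7 PLKO calls, with Cxcl5 and Mmp3 at 1.72 and 1.81 and Krt10 and Lor at -1.76 and -1.75, and no shCD36 point is filled.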

How the data were processed

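RNA of 36 mouse Affymetrix arrays was analysed from the deposited table of log2 intensities, made by the authors with RMA in affy per the submitters' processing notes. The values had been adjusted further: batch and cell line terms were below 1e-06 in 100% of 45141 probe sets with diet and shRNA in the model, against 0.00222% without. The platform annotation named 1 gene for 28898 probe sets, several for 551 and none for 15692. The probe set with the highest mean stood for each of 17097 genes, and the 25% lowest were left out, leaving 12823.

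The 11 group averages were fitted with limma 3.58.1 (R 4.3.3) with experiment as a fixed block (4 residual degrees of freedom), with Benjamini-Hochberg adjustment over all genes at 0.05. Same-numbered groups share an experiment per the labels. limma was also fitted within experiments with arrays as units, a choice made after seeing the data. The script was tested on simulated data. The genes and the 15 lists were chosen with earlier results of these data known. Named list genes were up to 4 per list with the smallest p in palmitate over control in PLKO or in shCD36 tumours, and likeness named the 5 highest Pearson correlations. Motif letters were chosen without a preset rule, and all 6 searched are given. Stat3, Tubb3, Mapkapk2, Dyrk3, Pigr, the Il10 differences in PLKO tumours and the array values of S100a8 were singled out after their values were seen.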

Additional observations from a re-analysis of the deposited data

Results flagged for a closer look

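Il20rb in first VDH15 palmitate tumours held an array that lay away from the other 3. The array at 6.71 log2 stood above arrays at 6.57, 6.55 and 6.56 log2, and its gap to the nearest was 0.867 of the group's range, above Dixon's 95% critical value for 4 arrays. Of 18 gene and group combinations, 1 was picked out, and chance picks out about 1 in 20. Without the 2 arrays that stood apart, the palmitate minus control difference of Il20rb was -0.01 log2, against -0.05 log2 with all arrays.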

How the results depend on the processing

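Il20 and Il24 kept their direction in shCD36 tumours under each alternative run, but the contrast chose them, so nothing is read from that. Their arrays did not overlap, so leaving out 1 array could not turn the direction. Leaving out 1 array at a time, the difference ran from 1.98 to 2.27 log2 for Il20 and 1.68 to 2.00 log2 for Il24 in SCC25 tumours, and from 1.00 to 1.30 log2 and 0.94 to 1.047 log2 in the second VDH15 experiment. For the first VDH15 experiment, dropping the 2 arrays that stood apart, chosen after seeing the data, turned Il20 from -1.01 to 0.23 log2 and Il24 from -0.28 to 0.28 log2.

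Genes called for palmitate over control in PLKO tumours numbered 887, 3001 with no replicate block, 3052 with arrays as units and a random block, and 0 to 224 without 1 experiment. For palmitate over oleate the 5 calls became 3 after quantile normalization, 869 without the block, 581 with arrays as units, 0 without the 3 arrays that stood apart and 0 without the SCC25 or the second VDH15 experiment. For palmitate over control in shCD36 tumours 0 became 7 with arrays as units. For shCD36 over PLKO on control diet 0 became 1 after quantile normalization, 13 without the block, 35 with arrays as units and 1 without the 3 arrays. On palmitate 48 became 1722 without the block, 1627 with arrays as units, 6 without the 3 arrays and 0 to 115 without 1 experiment. The deposited values were already adjusted for batch and cell line. The cause of these changes was not tested.

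Some values turned sign, and not all of them were small. Il20 on palmitate in PLKO tumours was -0.039 log2 with arrays as units, and -0.42 to 0.51 log2 without 1 experiment. Without the 3 arrays, palmitate over oleate went from -0.58 to 0.23 log2 for Il20 and from -0.079 to 0.018 log2 for Il20ra. Il10rb on palmitate was -0.076 to 0.16 log2 without 1 experiment, and on oleate 0.023 log2 with all its probe sets averaged. In shCD36 tumours, leaving out 1 array, Il20ra ran from -0.084 to 0.10 log2 in the second VDH15 experiment and Il20rb from -0.10 to 0.0096 log2 in SCC25 tumours. Of 173 values for single genes under an alternative, 162 kept direction and, where tested, call. With 0 of 5 genes called in the fits over all groups, keeping the call mostly meant staying uncalled. Values in shCD36 tumours had no test and so no call. Alternatives for Il19 and Il22ra1 were not run. The number of biological replicates limits the precision: 3 for PLKO palmitate, 2 for shCD36 and 1 for oleate.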
